A study of Mus musculus with 28 samples.

Results

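Kidneys of diabetic db/db mice with 1 kidney removed were compared with kidneys of intact db/m mice at 26 weeks of age, across all genes of a bulk RNA-seq table. The comparison used the 17 libraries labelled 26 weeks out of the 28 in the series, 12 from db/db and 5 from db/m animals, and every gene that reached a value of 1 in 5 or more of the 28 libraries. That rule left 13495 of 14845 genes. The db/db animals were males, carried the diabetic genotype and had undergone uninephrectomy (Unx). The db/m animals were males of the same age, described as intact. The remaining 11 libraries came from the same genotypes and surgical states at 35 weeks and entered the statistical fit only through its shared estimate of spread. No intact db/db group and no uninephrectomized db/m group was part of the comparison, so genotype, obesity, diabetes and the loss of a kidney form 1 contrast and cannot be told apart. Whole kidney RNA was sequenced, so fewer cells of a type and less RNA per cell cannot be told apart either.

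The db mutation removes the signalling form of the leptin receptor, and homozygous animals overeat, become obese and develop hyperglycaemia. The proximal tubule, which makes up most of the mass of the kidney cortex, reabsorbs filtered glucose, amino acids, phosphate and protein, secretes organic ions and drugs, burns fatty acids and activates vitamin D. In mice this segment also differs between males and females, because androgen drives a large set of its genes. In diabetes and after the loss of a kidney the remaining nephrons carry a larger filtered load, and injured tubule cells are known to switch on secreted injury proteins while losing transport functions.

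The deposited values behave as estimated read counts multiplied by 1 factor per library, and not as values divided by gene length, so levels are compared between libraries and not between genes. The recovered depth was 22.9 M to 28.2 M counts (M, mega) in the db/m libraries and 22.1 M to 28.6 M in the db/db libraries. Defining markers of proximal tubule, thick ascending limb, distal convoluted tubule, collecting duct, podocyte and endothelium were present in all 17 libraries. The summed level of 5 proximal tubule markers was 8741 to 9768 in db/m and 6725 to 8278 in db/db kidneys, 2 principal cell markers summed to 288 to 518 and 650.0 to 977, and 3 endothelial markers to 132 to 167 and 82.8 to 110.5. Haemoglobin genes summed to 289.9 to 1368 in db/m and 178 to 692 in db/db libraries, and the part of blood content in the results was not tested. The sum of 3 urothelial markers was low in both groups, at 0.0439 to 0.762 in db/m and 0.554 to 7.03 in db/db libraries. One library, db/m replicate 04, stood high in genes of antigen presentation and of the endoplasmic reticulum, and values without it stand beside results that change when it is left out.

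At an adjusted p below 0.05, 4713 genes differed, which is 34.9% of the genes tested. Of these, 2318 were higher in db/db kidneys (17.2% of genes tested) and 2395 were lower (17.7%). For 1725 genes (12.8%) every db/db library lay on the same side of every db/m library. These shares are the background against which the counts of each gene group below are read. Most differences were small: 337 of the higher genes differed by less than 1.2-fold and 1034 by 1.2-fold to 1.5-fold, and 268 reached 2-fold. Among lower genes 593 stayed under 1.2-fold, 1095 lay between 1.2-fold and 1.5-fold, and 274 reached 2-fold. Falls clustered among genes with high values. With the genes split by mean level into 5 classes of equal size, 1047 were lower and 468 higher in the highest class. In the lowest class 193 were lower and 383 higher. The summed deposited value was 976214 to 1018934 in db/m and 917330 to 956393 in db/db libraries. When the libraries were scaled to equal sums, a choice made after seeing the data, 5234 genes were called, 3587 higher and 1647 lower, so that 68.5% of calls were higher in place of 49.2%. The median log2 difference of all genes moved from 0.02 to 0.11 under that scaling.

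**Figure D1:**
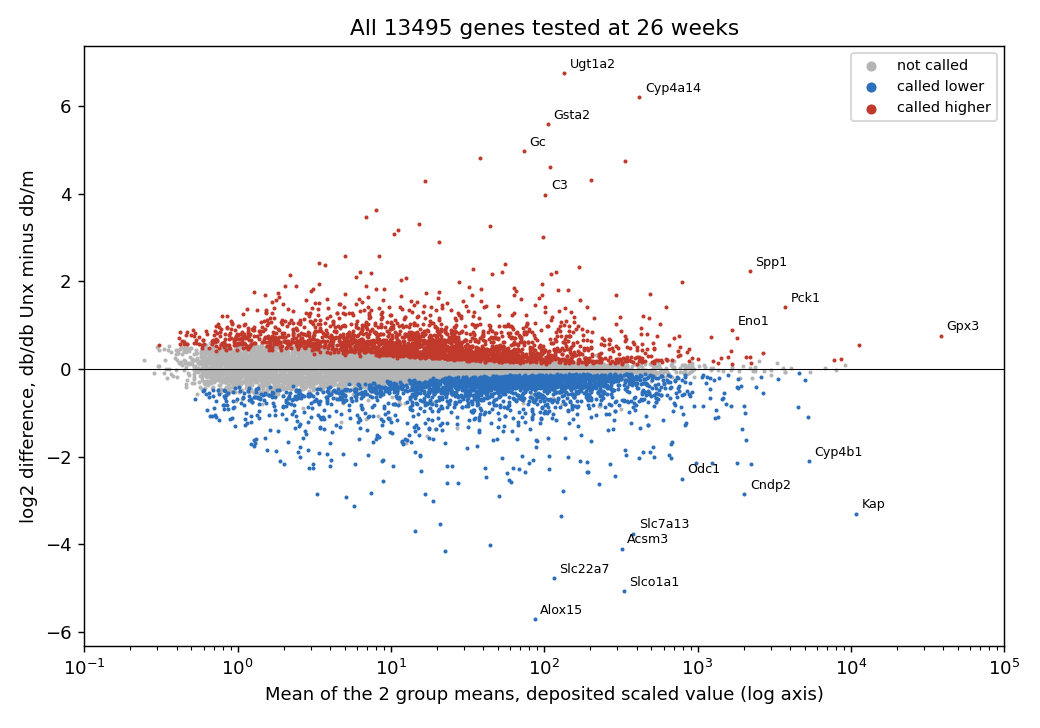
Log2 difference (db/db Unx minus db/m) of each of the 13495 genes tested, against the mean of the 2 group means on a log axis. Each point is a gene, red where called higher and blue where called lower. Ugt1a2 and Cyp4a14 lie at the top, Alox15 and Slco1a1 at the bottom, and Kap is the abundant gene with the deepest fall.

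The largest rises were led by enzymes of conjugation and fatty acid hydroxylation. Cyp4a14, a fatty acid omega-hydroxylase, stood at 2.77, 10.5, 12.6, 14.9 and 15.3 in the db/m libraries (values of the 5 libraries are given in ascending order throughout) and at 583 to 1324 (median 735) in the 12 db/db libraries (lowest, highest and median). The groups were far apart in Cyp4a14, with a log2 difference of 6.20 ± 0.29 (moderated standard error) and an adjusted p of 4.74e-15 by limma. Gc, the vitamin D binding protein normally made by liver, was at 1.8, 2.81, 3.85, 4.43 and 5.9 in db/m and 101 to 191 (median 139.7) in db/db kidneys, a log2 difference of 4.97 ± 0.16. Bhmt, which remethylates homocysteine with betaine, was at 1.03, 1.07, 1.27, 1.31 and 3.67 and at 41.3 to 163 (median 70.6). Neither Gc nor Bhmt overlapped between groups. C3, the central complement component, went from 7.48, 8.55, 9.18, 15.3 and 16.7 to 114 to 269 (median 195), and Fgg, the fibrinogen gamma chain, from 4.87, 6.41, 7.73, 9.09 and 9.16 to 56.2 to 132 (median 76.5). C3 and Fgg were likewise separate, with log2 differences of 3.98 ± 0.21 and 3.28 ± 0.19.

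The deepest falls were in lipid oxygenation, organic anion transport and steroid metabolism. Alox15, an arachidonate and linoleate lipoxygenase, was at 126, 146, 179.7, 183 and 219 in db/m and at 1.01 to 4.29 (median 2.17) in db/db libraries, a log2 difference of -5.71 ± 0.21. Slco1a1, an organic anion transporter of the apical proximal tubule, was at 456, 561, 702, 724 and 734 and at 1.95 to 50.9 (median 22.2). The db/db values of Slco1a1 spread over more than a factor of 10 among themselves but stayed below every db/m value. Slc22a7, the organic anion transporter Oat2, was at 183, 211, 213, 251 and 259 and 2.94 to 13.3 (median 7.91), and Acsm3, a medium-chain acyl-CoA synthetase, at 473, 535, 555, 721 and 739 and 19.3 to 56.3 (median 32.5). Both Slc22a7 and Acsm3 were separate between groups, with log2 differences of -4.78 ± 0.31 and -4.10 ± 0.22. Ccl28, a chemokine of mucosal epithelia, fell from 27.7 ± 8.86 (mean ± SD, n = 5) to 1.2 ± 0.571 (n = 12), and Angptl7, a secreted angiopoietin-like protein, from 39.6 ± 15.3 to 2.53 ± 1.3. Pzp, an alpha-2-macroglobulin family protease inhibitor, went from 89.3 ± 14 to 12.2 ± 6.17. C4a, a complement component 4 gene annotated as a processed transcript, went from 34.4 ± 9.31 to 3.45 ± 1.33, and reads of its near-identical neighbour could be split between the copies.

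**Figure D2:**
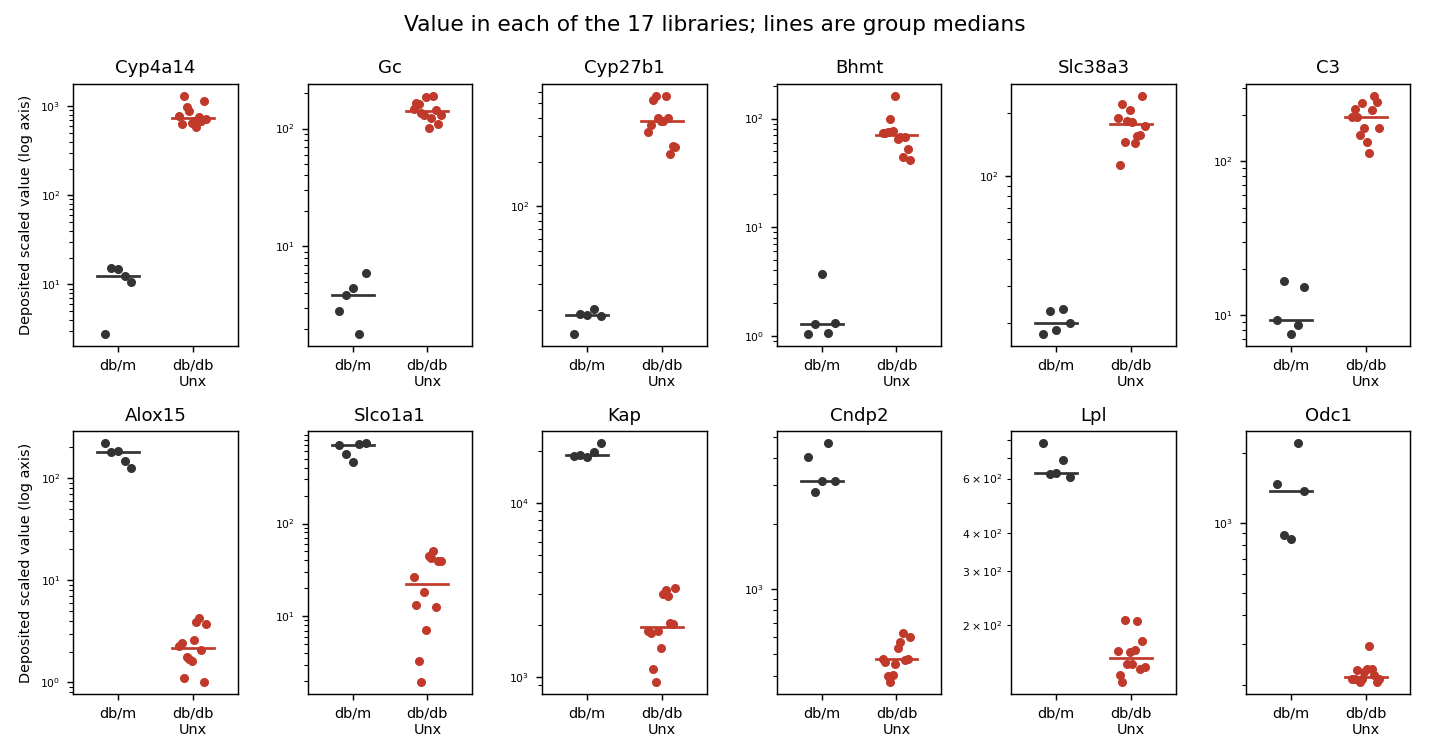
Deposited scaled value of 12 genes in each of the 17 libraries, on log axes that differ between panels. Points are libraries and lines are group medians. In each of the 12 panels the db/m and db/db points do not overlap, with the 6 genes of the upper row higher and the 6 of the lower row lower in db/db kidneys.

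A few genes with high values carried much of the change in summed value. Values are not divided by gene length, so the shares below describe summed value and not transcript numbers, and they rest on the deposited scaling. On the value scale the 8 largest gains made up 37.1% of the summed gain and the 8 largest losses 25.6% of the summed loss. Gpx3, the plasma glutathione peroxidase secreted by the proximal tubule, had the largest gain, from 28848 ± 1986 to 48917 ± 2584. It has the highest value of all genes in every library, so quantile normalization, which gives each rank the same value, sets its difference to 0. Pck1, the cytosolic step of gluconeogenesis, went from 2019 ± 314 to 5420.4 ± 1168. Spp1, osteopontin, went from 758 ± 68.7 to 3632 ± 705. Among losses, Kap, the androgen-regulated kidney protein, went from 19528 ± 1473 to 2114 ± 789 and Cyp4b1, a fatty acid and xenobiotic hydroxylase, from 8632 ± 1049 to 1991 ± 162. Selenop, the selenium transport protein, went from 3110.2 ± 346 to 1005 ± 132, and Acy3, the aminoacylase of mercapturic acids, from 3624 ± 593 to 814 ± 180.3.

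Conjugation enzymes moved in both directions, by family. Of 15 UDP-glucuronosyltransferases, which attach glucuronic acid to bilirubin, steroids and drugs, 6 rose and 8 fell. Ugt1a2 was at 0, 0.129, 1.95, 2.18 and 2.68 in db/m and 64.3 to 554 (median 256) in db/db libraries, Ugt1a10 at 7.29, 7.37, 7.39, 7.43 and 8.02 and 154 to 282 (mean 211), and Ugt1a1, the bilirubin enzyme, at 0, 0.13, 0.556, 0.929 and 1.76 and 13.8 to 55.8 (median 35.2). None of the 3 overlapped. Ugt1a genes share their last exons, so the split of reads among them is uncertain. In the same cluster Ugt1a6b was lower, at -0.91 ± 0.23 on the log2 scale, and Ugt1a6a higher, at 1.46 ± 0.11. Androgen-responsive or steroid-conjugating members of the Ugt2b family fell, Ugt2b38 from 2923 ± 252 to 670.0 ± 144 and Ugt2b5 from 19.8 ± 1.12 to 6.5 ± 1.63.

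Glutathione transferases, which join glutathione to electrophiles, rose as a family: 15 of 23 were higher and 1 was lower, with a median log2 difference of 0.45 against 0.02 for all genes. Gsta2 was at 1.51, 2.83, 3.69, 3.9 and 3.95 in db/m and 124 to 417 (median 190.4) in db/db libraries, and Gsta1 at 0, 0.16, 0.198, 0.292 and 0.878 and 9.81 to 34 (median 13.2). Both were separate between groups, though their near-identical sequence leaves the split of reads uncertain. Gsto1, an omega-class transferase, went from 27.1 ± 4.64 to 99.1 ± 12, and Mgst1, a microsomal member, from 85.4 ± 9.85 to 256 ± 42. The single lower member was Gstz1, which acts in tyrosine breakdown, at -0.47 ± 0.05. Both named genes of glutathione synthesis fell: Gclm, the modifier subunit of the rate-limiting ligase, went from 492 ± 14.9 to 270.1 ± 21.6, and Gss, glutathione synthetase, from 518 ± 52.9 to 345 ± 19.5. Ggct, gamma-glutamylcyclotransferase, which acts on gamma-glutamyl breakdown products, went from 70.1 ± 9.54 to 22.2 ± 4.34. In the list of NRF2 and oxidative stress targets, 14 of 28 rose and 7 fell. Nqo1, a quinone reductase, was higher by 0.98 ± 0.09 on the log2 scale, Ephx1, an epoxide hydrolase, by 1.79 ± 0.11, and Srxn1, sulfiredoxin, by 0.78 ± 0.07. Me1, malic enzyme, was at -1.29 ± 0.06 on that scale, and the superoxide dismutases Sod1 and Sod3 fell too, at -0.57 ± 0.07 and -0.51 ± 0.05. Of the efflux pumps, Abcc4 went from 17 ± 4 to 93.8 ± 18.8, Abcc3 from 1.53 ± 0.556 to 11 ± 3.26, and Abcb1b, a multidrug pump, from 1.96 ± 1.94 to 9.9 ± 2.12. Across ABC transporters 14 of 34 rose and 1 fell.

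HNF1 factors are homeodomain proteins of kidney and liver that bind a palindrome built of a repeated unit. Promoters of genes that rose include liver-type genes, and 3 are shown because they hold part of that palindrome close to the start. The letters searched were GTTAATNAT, on both strands, in the 250 bases before the start of each gene, from RefSeq promoters of GRCm38.p6 that matched 10625 of the 13495 tested genes by symbol. The motif was in 74 of 13569 promoter entries (0.545%), in 10 of 255 entries of genes at least 2-fold higher (3.92%) and in 3 of 255 of genes at least 2-fold lower (1.18%). The 10 were Ugt1a10, Igfbp1, Ugt1a1, Gc, Fga, Ugt1a9, Cp, Prodh2, Alb and Cyp4a32, and the 3 were Tm4sf4, Pzp and Smim10l2a. Igfbp1 lost its call without db/m replicate 04 (adjusted p = 0.0748). A match is a description of letters and not a binding site. Other motifs were searched in the same way, and differences between sets were not tested. The AP-1 site (TGANTCA) was in 4.6% of all entries, 9.8% of those at least 2-fold higher and 6.27% of those lower. For the TATA box these shares were 6.71%, 12.2% and 13.3%. For the antioxidant response element core they were 11.6%, 11% and 10.6%. Each sequence below runs 5′ to 3′ on the strand of the gene, covers the 150 bases before its start, and has the motif or its reverse complement in capitals: Gc at chr5:89457899-89458048 (minus strand), Fga, the fibrinogen alpha chain, at chr3:83026003-83026152 (plus strand), and Ugt1a1 at chr1:88211809-88211958 (plus strand).
Gc: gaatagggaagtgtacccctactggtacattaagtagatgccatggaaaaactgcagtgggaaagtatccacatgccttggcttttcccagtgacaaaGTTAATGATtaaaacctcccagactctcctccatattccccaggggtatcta
Fga: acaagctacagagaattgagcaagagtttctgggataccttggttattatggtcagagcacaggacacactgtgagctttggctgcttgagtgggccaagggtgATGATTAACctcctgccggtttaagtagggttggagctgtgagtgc
Ugt1a1: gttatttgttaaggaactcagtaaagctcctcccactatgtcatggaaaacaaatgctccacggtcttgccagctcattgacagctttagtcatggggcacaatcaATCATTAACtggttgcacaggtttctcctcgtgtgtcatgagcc

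Genes with higher expression in male than in female mouse kidney fell nearly throughout. Of 25 such genes, 22 were lower, all 22 of them with no overlap between groups, against a background of 17.7% lower, and the list median was -2.18. Kap was at 18449, 18568, 18879, 19741 and 22002 in db/m and 939 to 3233 (median 1928) in db/db libraries. Srd5a2, the 5-alpha-reductase that makes dihydrotestosterone, was at 24, 31.3, 32.8, 51.5 and 79.1 and 0.383 to 2.52 (median 1.26), and Odc1, ornithine decarboxylase, at 852, 883, 1375, 1471 and 2207 and 206 to 295 (median 216). Each of these 3 was separate between groups. Cndp2, a cytosolic dipeptidase, went from 3556 ± 779.9 to 488 ± 80.8, Akr1c14, a 3-alpha-hydroxysteroid dehydrogenase, from 233 ± 23.2 to 23 ± 9.62, and Hsd11b1, which regenerates active glucocorticoid, from 394 ± 109 to 61.1 ± 5.37. The 1 member called higher was Serpina1f, at 0.31 ± 0.10, and Fkbp5, a target of several steroid receptors, and Pigr were not called, at 0.58 ± 0.23 and -0.18 ± 0.24. The call of Serpina1f ended without db/m replicate 01 (adjusted p = 0.125), and Fkbp5 was called higher after quantile normalization (adjusted p = 0.0303), with equal sums (0.0227), in the fit over 17 libraries (0.0236), without trend or robust moderation (0.0428), with a minimum value of 10 (0.0458), without db/m replicate 01 (0.038) or 04 (0.0332), and without db/db replicate 07 (0.0412) or 12 (0.0468). Esr1, the oestrogen receptor alpha, went from 12.2 ± 0.589 to 5.1 ± 1.17. Of 13 genes listed as female-biased, 9 rose and 4 fell. Prlr, the prolactin receptor, went from 11.4 ± 4.03 to 57.4 ± 10.8, Kynu, kynureninase, from 2.05 ± 1.05 to 28.4 ± 6.2, and Slc7a12, an amino acid transporter, from 12.1 ± 8.12 to 43.5 ± 6.51. The 4 lower members were Slco1a4, Aadat, Cyp7b1 and Cyp2a4, at -2.18, -0.80, -2.29 and -1.34 on the log2 scale. All 17 animals were labelled male, so the sex bias of the genes in both lists could not be checked here.

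Amino acid carriers were counted in 2 lists, named basolateral and apical. Whole-kidney values do not show the face or the cell type of a carrier, and some members may sit elsewhere. The difference between the lists was not tested. In the basolateral list 10 of 12 genes rose and 1 fell, and in the apical list 3 of 13 rose and 7 fell. Slc38a3, the glutamine carrier that feeds ammonia formation, was at 17.7, 18.4, 19.9, 22.9 and 23.4 in db/m and 112 to 241 (median 177) in db/db kidneys, with no overlap and a log2 difference of 3.02 ± 0.15. Slc6a12, the betaine carrier, went from 0.763 ± 0.803 to 9.21 ± 3.44, Slc7a8, a neutral amino acid exchanger, from 89.3 ± 6.65 to 182 ± 32, and Slc3a2, its heavy chain, from 222 ± 11.3 to 409.7 ± 40.7. Slc7a7, Slc43a2, Slc7a5, Slc16a10, Slc38a2 and Slc1a5 also rose, by 0.32 to 0.87 on the log2 scale. The exception was Slc1a4, an alanine and serine carrier, which went from 33 ± 4.72 to 13.6 ± 2.92, and Slc7a2 was not called (0.50 ± 0.22). The calls of Slc38a2, Slc7a5 and Slc1a5 ended when single db/m replicates were left out (03, 04 or 05 for Slc38a2, 01 or 04 for Slc7a5, 05 for Slc1a5), at adjusted p of up to 0.0859, 0.0872 and 0.314. Slc7a2 gained a call with equal sums and without db/m replicate 02 (adjusted p = 0.0212) or db/db replicate 07 (0.0408). In the apical list Slc7a13, a cystine and acidic amino acid carrier of the straight segment, is also male-biased. It was at 659, 671, 680.4, 707 and 815 and 23.7 to 95.2 (median 48.8). Slc7a13 did not overlap. Slc15a2, the high-affinity peptide transporter, went from 75.1 ± 9.44 to 39.8 ± 4.27, Slc6a20b from 292 ± 14.9 to 179 ± 14.1, Slc3a1, the cystinuria heavy chain, from 670.1 ± 33.2 to 531 ± 23.5, and Slc1a1, the glutamate carrier, from 265 ± 18.6 to 211 ± 18.1. Slc36a1 and Cltrn, collectrin, were at -0.32 ± 0.07 and -0.22 ± 0.05, and Cltrn turned to 0.08 (adjusted p = 0.269) after quantile normalization. Slc6a6, the taurine carrier, Slc6a13 and Slc6a19, the main neutral amino acid carrier, were higher at 0.47 ± 0.06, 0.28 ± 0.05 and 0.43 ± 0.13. Slc6a19 was not called without db/m replicate 04 (adjusted p = 0.0781). Slc7a9, Slc6a18 and Slc6a20a were not called as deposited, and Slc7a9 and Slc6a18 were called higher both after quantile normalization (0.24 and 0.25) and with equal sums (0.24 and 0.18).

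Organic ion carriers, which clear drugs and metabolites from blood into urine, mostly fell. In the Slc22 family 13 of 21 were lower and 3 higher. Slc22a2, the basolateral cation transporter Oct2, was at 435, 443, 466, 511 and 522 and 208 to 291 (median 239), and its groups did not overlap. Slc22a6, the anion exchanger Oat1, went from 1402 ± 119 to 1018 ± 84.8, and Slc22a12, the urate transporter, from 864 ± 181 to 583 ± 81.4. The rodent-specific members Slc22a26, Slc22a28, Slc22a30 and Slc22a19 were at -2.83, -2.13, -2.36 and -2.03 on the log2 scale, and reads may be shared among these near copies. Others rose (Slc22a23, Slc22a29 and Slc22a3, the low-affinity cation transporter Oct3), at 0.62, 0.90 and 0.82. On the apical side Slc47a1, the cation extruder Mate1, went from 658 ± 83.6 to 411 ± 32.4, and Slc17a3, a urate and anion exporter, from 795 ± 116 to 229 ± 34.6.

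Sugar and phosphate carriers were more often higher than lower: 12 of 25 rose and 6 fell, or 13 and 3 after quantile normalization. Slc5a10, a mannose and fructose cotransporter, was at 189.7, 223, 228, 247 and 252 in db/m and 660.2 to 834 (median 769.6) in db/db libraries, with no overlap. Slc5a1, the glucose cotransporter Sglt1 of the straight segment, went from 85 ± 6.74 to 155 ± 14, and Slc2a2, the basolateral glucose exit Glut2, from 189 ± 19.5 to 283 ± 29.5. Slc5a2, the bulk glucose cotransporter Sglt2, was at 656 ± 72.8 and 752 ± 112 and was not called (adjusted p = 0.113). It was called higher after quantile normalization (0.37), with equal sums (0.28), with the replicate block (0.35), and without db/db replicate 09 (0.23) or 12 (0.23). Slc2a5, the fructose carrier, went from 129 ± 25.9 to 291 ± 47. The phosphate carrier Slc34a1 went from 5486 ± 276 to 4592 ± 312, and the scaffolds that hold it at the brush border, Slc9a3r1 and Pdzk1, from 476 ± 14.3 to 307 ± 34.2 and from 1767 ± 119 to 1207 ± 102. After quantile normalization Slc34a1 was called higher, at 0.20 (adjusted p = 0.000445) in place of -0.26 ± 0.05, so its direction rests on the scaling.

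At the brush border 9 of 18 genes fell and 3 rose. Ggt1, which starts the breakdown of glutathione in the lumen, was at 1489.9, 1666, 1733, 1819.9 and 1911 and 851 to 989 (median 900.2), without overlap. Mep1b and Mep1a, the meprin metalloproteases, went from 105 ± 16.7 to 17 ± 3.63 and from 915 ± 71.1 to 471 ± 47.6, and Mme, neprilysin, from 47.7 ± 2.9 to 29.8 ± 5.3. Xpnpep2, aminopeptidase P, was higher, from 2.79 ± 1.09 to 8.36 ± 3.31, as was Cdhr2, an intermicrovillar cadherin, from 19.8 ± 2.35 to 40.9 ± 9.38. Of the endocytic receptors of filtered protein, Lrp2, megalin, went from 1048 ± 55.2 to 709 ± 39.7 and Cubn, cubilin, from 252 ± 17.2 to 214 ± 14.7, a call that ended after quantile normalization (-0.09, adjusted p = 0.196). Among the 32 endocytic and lysosomal genes 8 rose and 10 fell, and quantile normalization turned these counts to 12 and 6 and equal sums to 12 and 8.

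Genes of vitamin D and of calcium and magnesium transport rose: 11 of 20 were higher and 3 lower. Cyp27b1, the 1-alpha-hydroxylase that makes active vitamin D, was at 13.7, 18.2, 18.4, 18.8 and 20.2 in db/m and 228 to 564 (median 379) in db/db libraries, with no overlap and a log2 difference of 4.31 ± 0.24. Cyp24a1, which inactivates the hormone, was at 45.9 ± 20.1 and 29.2 ± 13.3 and was not called (adjusted p = 0.244). Trpv5, the calcium entry channel of the distal tubule, was at 1.66, 2.89, 2.97, 3.51 and 3.68 and 8.95 to 18.8 (median 12.1). Calb1, the calcium shuttle calbindin, went from 265 ± 19.7 to 612 ± 66, and Slc8a1, the sodium-calcium exchanger, from 47 ± 2.7 to 85.2 ± 9.03. Trpm6, the magnesium channel, went from 5.39 ± 1.63 to 10.3 ± 2.39. The 3 lower genes were Pth1r, the parathyroid hormone receptor, Kl, klotho, and Vdr, the vitamin D receptor, at -0.42 ± 0.05, -0.50 ± 0.06 and -0.21 ± 0.07. The call of Vdr ended with equal sums (adjusted p = 0.212), after quantile normalization (0.473), and without db/m replicate 01 (0.0576) or 05 (0.0924).

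Lipid genes moved by pathway. Of 29 regulators and targets of PPAR-alpha, the fatty acid sensor, 14 rose and 3 fell. Cyp4a10 went from 319 ± 90.1 to 1256 ± 311, Fabp1, the liver-type fatty acid binding protein, from 0.197 ± 0.134 to 1.98 ± 0.982, and Ucp2, an uncoupling protein, from 67.8 ± 10.6 to 156 ± 28.9. Acot1, Acot2 and Acot3, which release fatty acids from CoA, rose by 1.32, 1.00 and 1.69 on the log2 scale. The 3 that fell were Lpl, Slc27a2 and Acot12. Lipoprotein lipase (Lpl), which frees fatty acids from lipoproteins, was at 609, 621, 628, 691 and 782 and 131 to 207 (median 156), without overlap, and Slc27a2, a fatty acid uptake protein and very-long-chain synthetase, at 5290.2, 5562, 5562, 5970.3 and 6769 and 2896 to 3440.4 (median 3197). Cd36, the fatty acid scavenger receptor, also fell, from 487 ± 82.9 to 94 ± 33.7. Beta-oxidation itself was mixed, with 11 of 39 genes higher and 13 lower, and these counts became 19 and 8 under quantile normalization and 17 and 10 with equal sums. Acaa2, the mitochondrial thiolase, went from 342 ± 38.5 to 912 ± 102 and Cpt1b from 13.8 ± 3.12 to 28.7 ± 4.23, while Acadm and Acads, dehydrogenases of medium and short chains, went from 1079.7 ± 41.7 to 749 ± 42.7 and from 198 ± 13 to 135 ± 8.44. Amacr, a racemase of branched chains, went from 832 ± 118 to 206 ± 28.2.

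Of 16 genes of ketone body, acetate and propionate metabolism 8 fell and 4 rose. Bdh1, which interconverts the ketone bodies, was at 115, 131, 143, 143 and 150.3 and 29.1 to 62 (median 37.7), and its groups were separate. Oxct1, the CoA transferase that starts ketone use, went from 1402 ± 71.3 to 782 ± 66.6, and Acat1, the mitochondrial acetoacetyl-CoA thiolase, from 1174 ± 79.6 to 498 ± 34.5. Of 37 cholesterol and fatty acid synthesis genes 15 fell and 4 rose, or 13 and 7 with equal sums. Idi1, isopentenyl diphosphate isomerase, was at 90.4, 104, 105, 106 and 113 and 12.7 to 28 (median 21.9), and Cyp51, lanosterol demethylase, at 196, 211, 230.1, 248 and 258 and 40.8 to 95.7 (median 50.9). Mvd, of the same pathway, went from 75.5 ± 8.43 to 41.5 ± 3.03. On the fatty acid side Elovl6, an elongase, and Acly, which makes cytosolic acetyl-CoA, rose, from 9.53 ± 1.03 to 20.3 ± 2.64 and from 129 ± 13.8 to 198 ± 25.3. Apolipoprotein genes rose in part, Apoe from 187 ± 27.8 to 433 ± 86.3, Apoc3 from 13.3 ± 1.92 to 51.4 ± 10.1, Apob from 88 ± 8.18 to 190.5 ± 29.3, and the cholesterol exporter Abca1 went from 21.9 ± 4.29 to 60.9 ± 12.9. Apoh fell, from 18.5 ± 3.22 to 5.26 ± 1.94.

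Glycolysis genes rose: 20 of 33 were higher and 5 lower. Eno1, enolase, was at 1106, 1148, 1188, 1209 and 1249 and 1806 to 2468 (median 2191), without overlap, although near-identical pseudogenes may share its reads. Pkm and Pklr, the pyruvate kinases, went from 193 ± 19.2 to 397 ± 42.2 and from 9.33 ± 1.72 to 27 ± 6.56, and Hk1, hexokinase, from 52.5 ± 8.25 to 94.4 ± 10.6. The pyruvate dehydrogenase kinases went apart, Pdk1 from 19.8 ± 5.35 to 49.5 ± 9.42 and Pdk3 from 78.5 ± 11.4 to 31 ± 4.46. Ldhd, which oxidises D-lactate, went from 1034 ± 130.5 to 329 ± 74.4 and Ldha from 1270.0 ± 89.5 to 1013 ± 37.7, the latter not called after quantile normalization (adjusted p = 0.483). In gluconeogenesis, fructose use and the polyol pathway 13 of 29 rose and 5 fell, or 19 and 2 after quantile normalization and 17 and 2 with equal sums. Pck1 was at 1584, 1877, 2079.5, 2124 and 2432 and 3333 to 7405 (median 5416), and Fbp1, fructose bisphosphatase, went from 2333 ± 98.5 to 2999.5 ± 211. Akr1b3, the aldose reductase that makes sorbitol from glucose, was at 114, 125, 128, 138 and 157 and 31.2 to 74.4 (median 58.2). Every db/db value of Akr1b3 lay below every db/m value.

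Of 38 genes of amino acid breakdown 20 were lower and 10 higher. The counts lower and higher were 13 and 11 with equal sums and 15 and 10 after quantile normalization, and the list median went from -0.16 to -0.07 and -0.03. Cbs, which commits homocysteine to cysteine, went from 356 ± 42.1 to 175 ± 20.6, Ivd, of leucine breakdown, from 623 ± 37.7 to 294 ± 17.9, and Bcat1, a branched-chain transaminase, from 18.8 ± 4.58 to 5.14 ± 2.01. Higher were Glud1, glutamate dehydrogenase, from 248 ± 7.07 to 425 ± 55.2, Gldc, of the glycine cleavage system, from 55.2 ± 16.4 to 282 ± 76.8, and Hpd, of tyrosine breakdown, from 105 ± 21.3 to 278 ± 39.3. The one-carbon list had 12 of 29 genes higher and 8 lower, or 15 and 4 with equal sums and 14 and 5 after quantile normalization. Besides Bhmt, Ftcd, of histidine and folate metabolism, went from 18.1 ± 2.81 to 87.9 ± 16 and Shmt1 from 37.6 ± 3.61 to 77.9 ± 7.64. Mat2a, which makes S-adenosylmethionine, went from 674 ± 96.2 to 403 ± 82.5. In arginine metabolism Arg2, the mitochondrial arginase, was at 2.33, 4.2, 4.22, 4.47 and 4.75 and 13.1 to 25.3 (median 19.3), and the urea carrier Slc14a1 went from 0.864 ± 0.725 to 2.98 ± 1.41. In the path from tryptophan to NAD 3 of 18 genes rose and 6 fell. Kynu, a branch point of that path, was at 0.671, 1.43, 2.29, 2.46 and 3.42 and 18.2 to 38.6 (median 28.5), while Haao and Qprt, the steps toward NAD, went from 269 ± 14.5 to 167 ± 10.7 and from 126 ± 7.34 to 89.2 ± 13.3, and Acmsd, which diverts the intermediate, from 145 ± 30.1 to 87.7 ± 15.8.

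Of 37 proteasome subunits, which form the barrel and caps that degrade ubiquitinated proteins, 31 were lower and 0 higher by limma (0 higher at an unadjusted p below 0.05), against 17.7% lower among all genes, and 19 did not overlap between groups. The falls were small, with a list median of -0.27 on the log2 scale. Psmd14, the deubiquitinase of the cap, was at 81.8, 87.1, 87.5, 88.6 and 89.6 and 49.4 to 65.3 (median 52.7), Psmb7, a catalytic subunit of the barrel, at 144, 146, 155, 162 and 173 and 104 to 123 (median 114), and Psmc6, an ATPase of the cap, at 86.8, 94.3, 96.6, 96.7 and 99.1 and 64.4 to 80.5 (median 69). No value of Psmd14, Psmb7 or Psmc6 overlapped. The median over the subunits in single libraries was -0.070 to 0.047 relative to the db/m mean in db/m and -0.380 to -0.206 in db/db libraries, on the log2 scale. The inducible immunoproteasome subunits Psmb8, Psmb9 and Psmb10 were not called, at -0.79 ± 0.42, -0.78 ± 0.44 and -0.20 ± 0.29; in a fit over the 17 libraries alone Psmb8 and Psmb9 were called lower (adjusted p = 0.0182 and 0.00599). When libraries were scaled to equal sums 23 subunits stayed lower and 0 were higher by limma, and 20 were lower and 1 higher after quantile normalization. Nfe2l1, the factor known to drive proteasome genes, went from 76.3 ± 7.75 to 108 ± 10.6.

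In the endoplasmic reticulum 17 of 29 stress and folding genes were lower and 0 higher by limma. At an unadjusted p below 0.05, 17 were lower and 4 higher, and 17 and 4 were called lower and higher with equal sums. The chaperone Hspa5 (BiP) was at 529, 601, 611, 671 and 944 in db/m and 289 to 541 (median 361) in db/db libraries. Its groups overlapped, and its log2 difference was -0.76 ± 0.16. Hsp90b1, the paralogous chaperone Grp94, was at 369, 420.5, 432, 437 and 647 and 231 to 321 (median 264). The disulfide isomerases Pdia3, Pdia4 and Pdia6 went from 595 ± 73.4 to 351 ± 24.1, from 151 ± 14.2 to 95.1 ± 9.57 and from 267 ± 54.6 to 148 ± 17.4, and Edem1, which sends misfolded glycoproteins to degradation, from 109 ± 15.8 to 57.5 ± 7.51. Xbp1, a transcription factor of the unfolded protein response, went from 205 ± 40.9 to 151 ± 18.2. Ddit3 (CHOP) and Atf4, of the arm that signals cell stress, were not called, at 0.27 ± 0.12 and 0.08 ± 0.09; Ddit3 was called higher with equal sums (0.35) and without db/m replicate 05 (0.34). Replicate 04 of db/m held the highest db/m value of Hspa5 and Hsp90b1; without it 16 of the 29 genes were lower and 0 higher, with a median of -0.38 in place of -0.41. Among 20 cytosolic and mitochondrial heat shock genes 9 fell and 4 rose. Hspd1 and Hspe1, the mitochondrial chaperonin pair, went from 635 ± 52.8 to 434 ± 25 and from 326 ± 39.2 to 227 ± 15.1, and Hsp90ab1 from 1083 ± 262 to 694 ± 57.7. Hspb8, Cryab, Hspa1a and Hspa1b rose by 1.39, 0.76, 0.88 and 1.55, and the last 2 are near copies whose reads may be split.

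**Figure D3:**
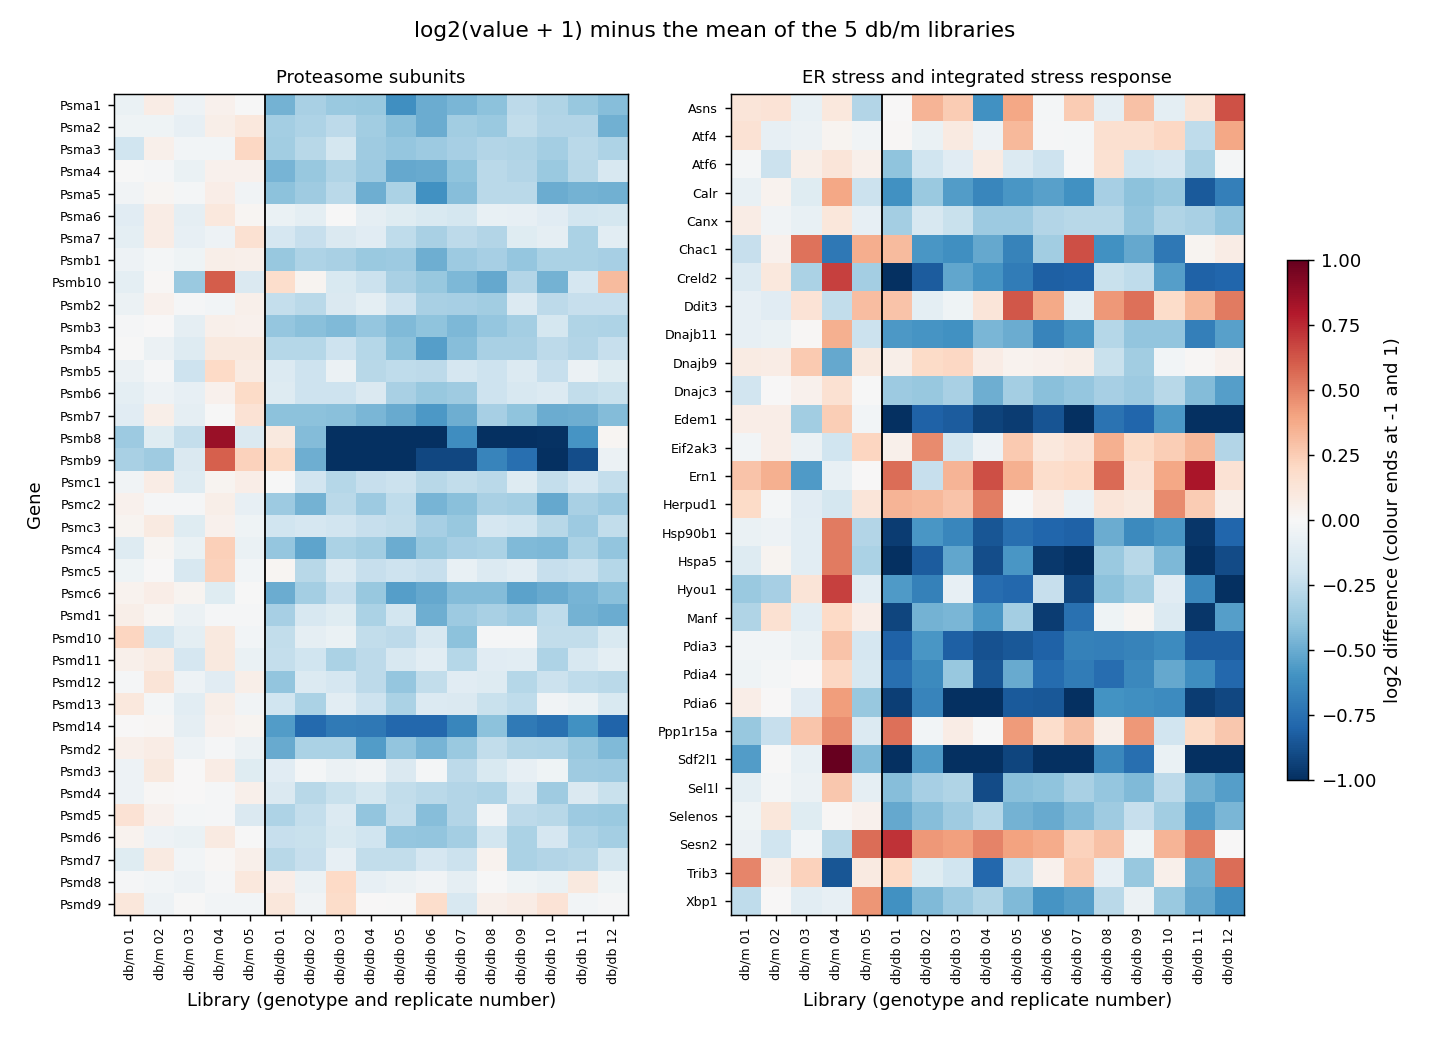
Log2(value + 1) of the 37 proteasome subunits (left) and the 29 endoplasmic reticulum and integrated stress genes (right) in each of the 17 libraries, minus the mean of the 5 db/m libraries. Columns are libraries, the black line parts db/m from db/db, and colours end at -1 and 1. Psmd14 and Edem1 are dark blue across db/db libraries, and db/m 04 is red for Hspa5, Hsp90b1 and Sdf2l1.

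The ER stress response element, bound by ATF6 with NF-Y, is the classic control sequence of these chaperones, and the promoters of 3 of them are shown for that reason. The letters searched were CCAAT, 9 bases of any kind and CCACG, on both strands of the 250 bases before the start; this search was added after values were seen. The element was in 17 of 13569 promoter entries (0.125%) and in 7 of the 26 with an entry in the list (26.9%). The 7 genes were Dnajc3, Hsp90b1, Creld2, Calr, Hspa5, Canx and Pdia6, and each of them was called lower. In that list 17 of 29 tested genes were called lower. The list holds known genes of this response, so its share with the element is no independent evidence. Of 255 entries of genes at least 2-fold higher 1 held the element, and of 255 at least 2-fold lower 0 did. Calls of the other genes with the element are not given, and its part in the falls was not tested. Sequences run 5′ to 3′ on the strand of the gene and end at the base before its start, with the element or its reverse complement in capitals: Hspa5 at chr2:34771940-34772089 (plus strand), Hsp90b1 at chr10:86705445-86705694 (minus strand) and Pdia6 at chr12:17266439-17266588 (plus strand), in GRCm38.p6 from RefSeq.
Hspa5: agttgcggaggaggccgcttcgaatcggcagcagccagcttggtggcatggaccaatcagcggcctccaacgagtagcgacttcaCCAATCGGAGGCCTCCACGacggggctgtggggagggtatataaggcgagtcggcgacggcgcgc
Hsp90b1: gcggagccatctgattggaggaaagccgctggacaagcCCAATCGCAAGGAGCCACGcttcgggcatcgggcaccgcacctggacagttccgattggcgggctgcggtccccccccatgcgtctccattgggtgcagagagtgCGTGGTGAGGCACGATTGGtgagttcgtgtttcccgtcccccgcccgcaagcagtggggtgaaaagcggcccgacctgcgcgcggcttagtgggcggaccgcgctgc
Pdia6: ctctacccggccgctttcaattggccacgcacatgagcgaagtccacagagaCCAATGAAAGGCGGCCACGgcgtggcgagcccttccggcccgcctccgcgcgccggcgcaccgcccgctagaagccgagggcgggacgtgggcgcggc

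Markers of injured tubule rose. Of 38 genes of injured or incompletely repaired tubule 27 were higher and 2 lower, with a median of 0.74. Lcn2, the siderophore-binding lipocalin, was at 0.307, 1.38, 1.52, 1.6 and 1.81 in db/m and 9.14 to 36.1 (median 21) in db/db kidneys. Spp1 was at 671, 715, 761, 797 and 847 and 2325 to 4950.2 (median 3736), and Fga at 11.2, 14.9, 15.3, 17.2 and 19.8 and 47.7 to 109 (median 72.7). Havcr1, kidney injury molecule 1, went from 2.89 ± 1.06 to 10.5 ± 6.74. Havcr1 overlapped between groups, with a log2 difference of 1.35 ± 0.44 and an adjusted p of 0.0185. Its adjusted p was 0.0525 without db/m replicate 04 and 0.2025 with the replicate block. Prom1, a progenitor-type surface protein, was at 29.4, 33.3, 35.2, 40.9 and 44.7 and 69.6 to 101 (median 90.9), and Cp, ceruloplasmin, went from 30.0 ± 5.11 to 71.9 ± 9.11. Vcam1 and Ccl2, the endothelial adhesion molecule and monocyte chemokine also made by failed-repair tubule, were not called, at 0.58 ± 0.27 and 0.20 ± 0.24. The 2 lower members were Itgb6, an epithelial integrin, at -0.69 ± 0.16, and Il34, a ligand of the macrophage growth factor receptor, which was at 36.9, 39.6, 42.5, 42.5 and 47.7 and 4.68 to 13.8 (median 7.56), without overlap. Of 9 keratins 6 rose and 1 fell: Krt18 went from 16.2 ± 1.57 to 39.4 ± 6.3, Krt19 from 0.482 ± 0.526 to 6.9 ± 3.16 and Krt7 from 85.3 ± 7.26 to 161 ± 16.4. The keratin that fell was Krt10, at -0.33 ± 0.12, a call that ended with equal sums (adjusted p = 0.0962), with the replicate block (0.0666), and without db/m replicate 04 (0.11) or 05 (0.0943).

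Of 30 p53 target and senescence genes 17 rose and 2 fell. Cdkn1a, the cell cycle inhibitor p21, was at 2.98, 3.26, 3.64, 4.35 and 6.37 in db/m and 23.2 to 47.7 (median 38.3) in db/db libraries. The groups of Cdkn1a were separate, with a log2 difference of 2.89 ± 0.15. Phlda3 and Gdf15, a p53 target and a secreted stress cytokine, went from 4.65 ± 1.03 to 12.9 ± 2.85 and from 7.23 ± 2.51 to 17.5 ± 4.07. Glb1, the lysosomal galactosidase, fell, from 139 ± 18.6 to 68.7 ± 10.6, as did Perp, at -0.21 ± 0.06, which was not called after quantile normalization or with equal sums (adjusted p = 0.143). Of 31 cell cycle genes 3 rose (Tyms, Rrm1 and Cdk2) and 2 fell (Tk1 and Mcm6), or 6 and 2 with equal sums. Among immediate early genes 11 of 27 rose, with Jun from 25.5 ± 3.62 to 44.1 ± 5.58 and Nr4a1 from 2.48 ± 1.88 to 5.93 ± 1.7, and 2 fell, Dusp6 and Gadd45g. The call of Gadd45g ended without db/m replicate 02, 04 or 05 (adjusted p of up to 0.112). Iron genes rose in 16 of 26 cases and fell in 4. Slc40a1, the iron exporter ferroportin, went from 50.3 ± 2.81 to 102 ± 14.8, Trf, transferrin, from 17.3 ± 3.77 to 40.1 ± 8.8, and Tfrc, the transferrin receptor, from 54.6 ± 11.2 to 27 ± 5.11.

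Matrix genes rose in part: 18 of 42 were higher and 3 lower. Fn1, fibronectin, was at 7.75, 8.09, 8.45, 9.69 and 9.88 and 15.5 to 24.6 (median 19.4), and Thbs1, thrombospondin 1, at 15.2, 16, 16.6, 19.3 and 20.8 and 30.3 to 60.7 (median 49.5). Col12a1 and Col18a1 went from 2.84 ± 0.636 to 10.2 ± 2.03 and from 83.5 ± 8.25 to 136 ± 12.7, and the fibrillar collagens Col1a1 and Col1a2 were at 0.55 ± 0.21 and 0.46 ± 0.11. The call of Col1a1 ended after quantile normalization and without db/m replicate 01, 02 or 05 or db/db replicate 06, 08 or 10 (adjusted p of up to 0.167). The 3 lower genes were Timp3, a metalloprotease inhibitor, from 2570.4 ± 123 to 1427 ± 132, Tgfbi, from 17.8 ± 1.63 to 9.67 ± 1.53, and Plau, urokinase, from 30.8 ± 9.04 to 16.9 ± 2.64. In the glomerular basement membrane Col4a3 and Col4a4, the collagen chains altered in Alport syndrome, fell, from 159 ± 15 to 103 ± 11.8 and from 158 ± 11.1 to 112 ± 12.1, while Lama5 rose, from 27.3 ± 4.13 to 43 ± 4.69. Of 34 TGF-beta family genes 8 rose and 4 fell, or 14 and 2 with equal sums. Tgfb1 was not called (-0.31 ± 0.15) except after quantile normalization (adjusted p = 0.0273), and Grem1, a BMP antagonist, went from 0.329 ± 0.339 to 6.44 ± 2.7.

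Inflammation genes did not move as a block. Among complement and coagulation genes 10 of 36 rose and 8 fell, and of the 23 that reach a minimum value of 10 6 and 7 did. Cd55, which protects cells from complement, went from 17.6 ± 4.93 to 3.05 ± 1.13, and Cfb, of the alternative pathway, from 519 ± 35.3 to 311 ± 27.2, while C3 rose. Proc, protein C, went from 384 ± 15.9 to 198 ± 15.3. Of 23 chemokine and myeloid growth factor genes 4 rose and 8 fell, with a median of -0.08, and without db/m replicate 04 5 and 5 did, with a median of 0.00. Il15 and Cxcl9 went from 22.5 ± 3.48 to 13.3 ± 2.66 and from 1.93 ± 1.77 to 0.33 ± 0.326, and Mif and Cxcl10 from 294 ± 42.3 to 563 ± 54.2 and from 6.26 ± 1.73 to 15.1 ± 4.45. Cxcl9 was not called without db/m replicate 04 (adjusted p = 0.0522), nor Cxcl10 without db/m replicate 02 (0.0615). Macrophage genes were called higher in 1 case (Cd14) and lower in 4 of 26: Csf1r, the receptor for Il34 and Csf1, went from 30.2 ± 6.68 to 19.7 ± 3.6, Aif1 from 5.03 ± 0.642 to 1.89 ± 0.651, Cd209a from 2.04 ± 1.24 to 0.261 ± 0.507 and C1qa from 17.7 ± 1.94 to 12.9 ± 3.09. The calls of Cd14 and C1qa ended without db/m replicate 02, 04 or 05 (adjusted p of up to 0.17 and 0.0928), and that of C1qa also without db/db replicate 04 (0.0523) or 07 (0.0508) and with equal sums. That of Cd14 ended also after quantile normalization and with 5 added before the log. None of the 22 antigen presentation genes was called by limma, and at an unadjusted p below 0.05 0 were higher and 2 lower. The median of that list was -0.30, and -0.09 without db/m replicate 04. In the fit over the 17 libraries alone 7 of these genes were called lower, among them H2-T23 (adjusted p = 0.00439), Psmb8 and Psmb9, and 1 was lower after quantile normalization. Among interferon response genes 1 of 32 rose (Ddx58) and 2 fell (Irf7 and Rsad2). Without db/m replicate 04, 1 interferon gene rose and 0 fell by limma, with Irf7 at an adjusted p of 0.138 and Rsad2 at 0.0625. In the fit over the 17 libraries alone 3 interferon genes rose and 8 fell. Leaving out any of 11 of the 17 libraries ended the call of Irf7, and leaving out any db/m replicate but 01 that of Rsad2. Neither was called with equal sums. At 35 weeks 18 of the 22 presentation genes and 16 of the 32 interferon genes were higher by the same fit, against 15.9% of all genes higher and 16.4% lower at that age. The difference between ages passed the test for 1 interferon gene (Irf7) and 1 presentation gene (H2-T23).

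In the list of STAT3, interleukin 6 family and NF-kB genes 11 of 30 rose and 4 fell, or 7 and 4 after quantile normalization and 7 and 4 without db/m replicate 05. Stat3, which transmits interleukin 6 family signals, went from 55 ± 2.89 to 98.1 ± 9.51, while the receptor subunits Il6st and Il11ra1 went from 86 ± 7.93 to 56.1 ± 7.16 and from 89.8 ± 9.11 to 54.8 ± 8.09. Of the insulin, mTOR and adipokine signalling genes 11 of 35 rose and 2 fell. Mtor, the growth kinase, which was 1 of those that fell, was at 178, 183, 187, 205 and 239.6 and 93.6 to 119.9 (median 107), and Foxo3 and Grb14, an insulin receptor adaptor, went from 18.3 ± 1.95 to 34.5 ± 7.58 and from 17.1 ± 3.21 to 25.3 ± 4.36. Of the epidermal, fibroblast and other growth factor genes 10 of 34 rose and 11 fell, so that 61.8% were called against 34.9% of all genes. Without db/m replicate 04 6 and 10 did, and with equal sums 11 and 9. Nrg1, a ligand of ERBB receptors, went from 8.43 ± 1.66 to 13 ± 2.05. Met, the hepatocyte growth factor receptor, and Fgf1, an epithelial growth factor, went from 125 ± 3.12 to 67.3 ± 7.37 and from 193 ± 37 to 108 ± 18.4. Vegfa and Egfr were lower too, at -0.28 ± 0.06 and -0.29 ± 0.08. In the renin-angiotensin group 4 of 21 genes rose and 5 fell, or 8 and 5 with equal sums and 6 and 5 after quantile normalization. The list median was 0.08, and the genes given next are among those that fell or were not called. Agtr1a, the angiotensin receptor, and Mas1, the receptor for angiotensin 1-7, fell, from 46.3 ± 3.25 to 35.6 ± 3.41 and from 3.94 ± 1.34 to 1.06 ± 0.752. Ren1 was not called, although it was lower in the fit over 17 libraries (adjusted p = 0.0291) and without db/db replicate 10 (adjusted p = 0.0294). Npr3, the clearance receptor for natriuretic peptides, went from 9.44 ± 3.21 to 3.13 ± 1.21. Of 21 clock genes 2 rose (Per1 and Bhlhe41, neither without db/m replicate 04, with adjusted p of 0.0673 and 0.0556) and 0 fell by limma, with 1 lower at an unadjusted p below 0.05. Without db/m replicate 04 0 clock genes were higher and 2 lower (Tef and Ciart, adjusted p = 0.0169 and 0.0485), so the direction of these calls rests on that library.

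**Figure D4:**
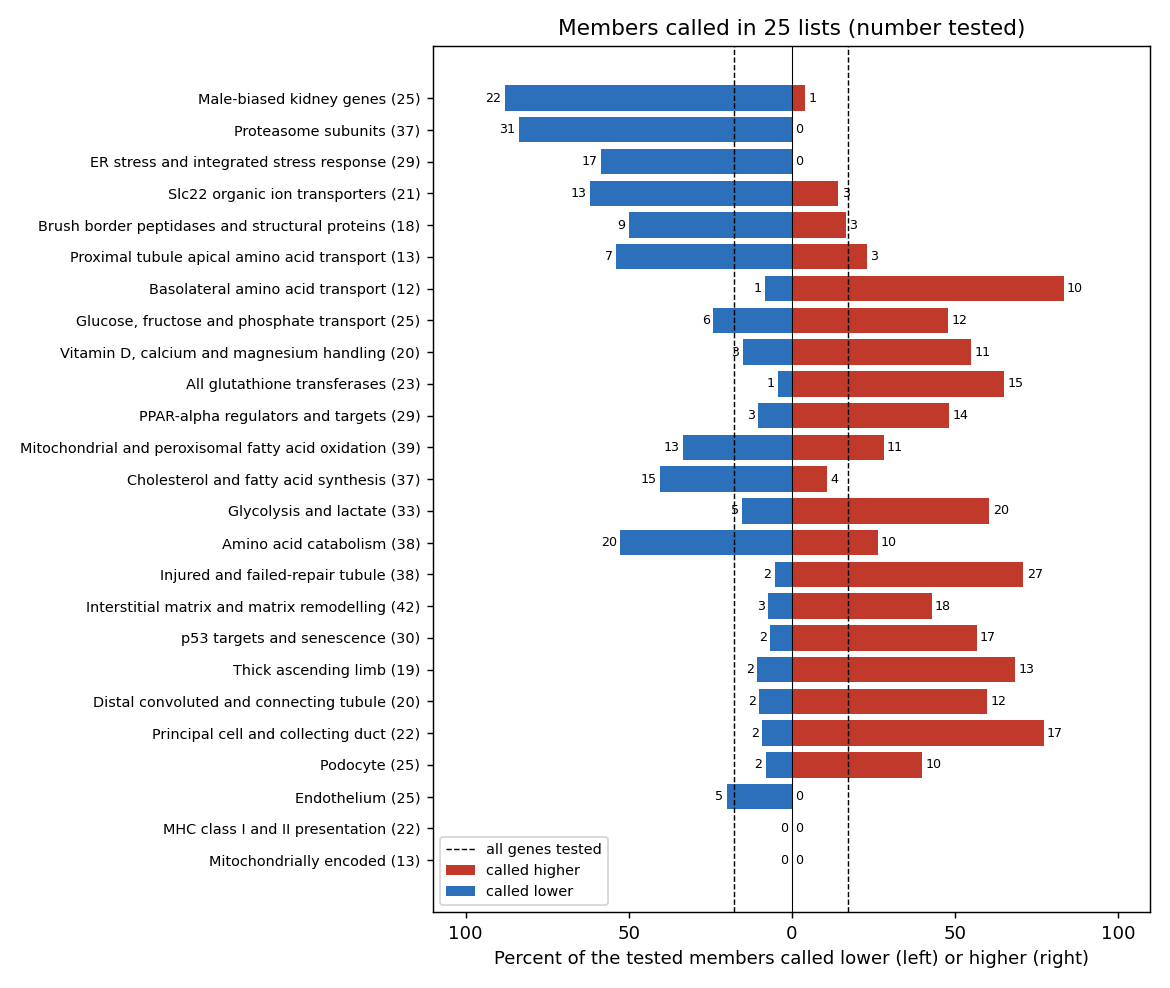
Percent of the tested members of 25 lists called lower (blue, to the left) or higher (red, to the right), with the number called at each bar and the number tested in brackets. Dashed lines mark the shares over all genes tested, 17.7% lower and 17.2% higher. Male-biased genes and proteasome subunits have the longest bars to the left, and basolateral amino acid transport and the collecting duct the longest to the right.

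Genes of the distal nephron rose. Of 19 thick ascending limb genes 13 were higher and 2 lower, of 20 distal convoluted and connecting tubule genes 12 and 2, and of 22 collecting duct genes 17 and 2. Aqp2, the vasopressin-regulated water channel, was at 251, 339, 371, 437 and 476 and 607 to 914 (median 755), and Scnn1g, the gamma subunit of the epithelial sodium channel, at 27.2, 32.9, 37.2, 37.5 and 42.1 and 42.7 to 67 (median 52.3). Avpr2, the vasopressin receptor, went from 18.5 ± 4.35 to 30.9 ± 6.89, and Aqp4, the basolateral water channel of the same cells, from 52.2 ± 14 to 22.6 ± 5.92. Slc12a3, the thiazide-sensitive cotransporter, went from 443 ± 34.7 to 603 ± 36.5, and its regulators Wnk4, Wnk1, Stk39 and Klhl3 rose by 0.41, 0.42, 0.67 and 0.73. Slc12a1, the loop diuretic target, went from 264 ± 43.7 to 413 ± 68.5, a call that ended with the replicate block (adjusted p = 0.0539). Umod, uromodulin, was at 1002 ± 129 and 885 ± 97.7 and was not called. Of 21 intercalated cell genes 10 were higher and 3 lower. The 3 defining markers of these cells summed to 112.5 to 137.5 in db/m and 100.3 to 138.8 in db/db libraries. Car2, carbonic anhydrase 2, and Atp6v0a4, a proton pump subunit, rose, from 344 ± 14.6 to 599 ± 57.1 and from 107 ± 8.55 to 183 ± 31. Whole-kidney values do not show in which cells they rose. Slc26a4, pendrin, fell, from 61.9 ± 7.4 to 48.6 ± 7.19, a call that ended with equal sums and without db/m replicate 01 (adjusted p = 0.0638). The proximal marker sum given above moved the opposite way to most called genes of these distal lists. Its largest part was Slc34a1, whose direction rests on the scaling, and its members Slc5a2 and Aqp1 were not called. Of 32 proximal tubule identity and transcription factor genes 14 rose and 4 fell. The sum of 2 thick ascending limb markers was 1096 to 1518 in db/m and 1026 to 1595 in db/db libraries. The part of tubule composition in these differences was not tested.

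Podocyte genes were higher in 10 of 25 cases and lower in 2. Synpo, synaptopodin, was at 17, 19.9, 20.2, 20.6 and 21.6 and 21.2 to 37 (median 26.2). Nphs1, nephrin, Podxl, podocalyxin, and Wt1 were not called, at 0.26 ± 0.16, 0.05 ± 0.07 and 0.33 ± 0.18. Of 25 endothelial genes 5 were lower and 0 higher by limma (0 higher at an unadjusted p below 0.05). Kdr, the main VEGF receptor, was at 57.5, 61.4, 67.8, 71.4 and 80.8 and 31.3 to 48.2 (median 40.8), and Emcn and Flt1 went from 50.8 ± 7.48 to 34.1 ± 3.69 and from 38 ± 3.42 to 28.8 ± 2.79. Pecam1 was at 25.1 ± 0.999 and 25.4 ± 4.37 and was not called. In smooth muscle and mesangium 7 of 18 rose and 0 fell by limma (1 lower at an unadjusted p below 0.05), with Acta2, smooth muscle actin, from 14 ± 4.05 to 21.8 ± 4.28. Of 3 genes of urothelium, the lining of the renal pelvis, 2 rose, both without overlap between groups. Psca went from 0.167 ± 0.186 to 2.15 ± 1.14 and Upk1a from 0.169 ± 0.0868 to 1.09 ± 0.698, and Upk1b was not called. The call of Psca ended with 5 added before the log (adjusted p = 0.0764), and that of Upk1a under 15 of the 27 alternatives, among them the omission of any 1 db/m library (adjusted p of up to 0.0896).

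**Figure D5:**
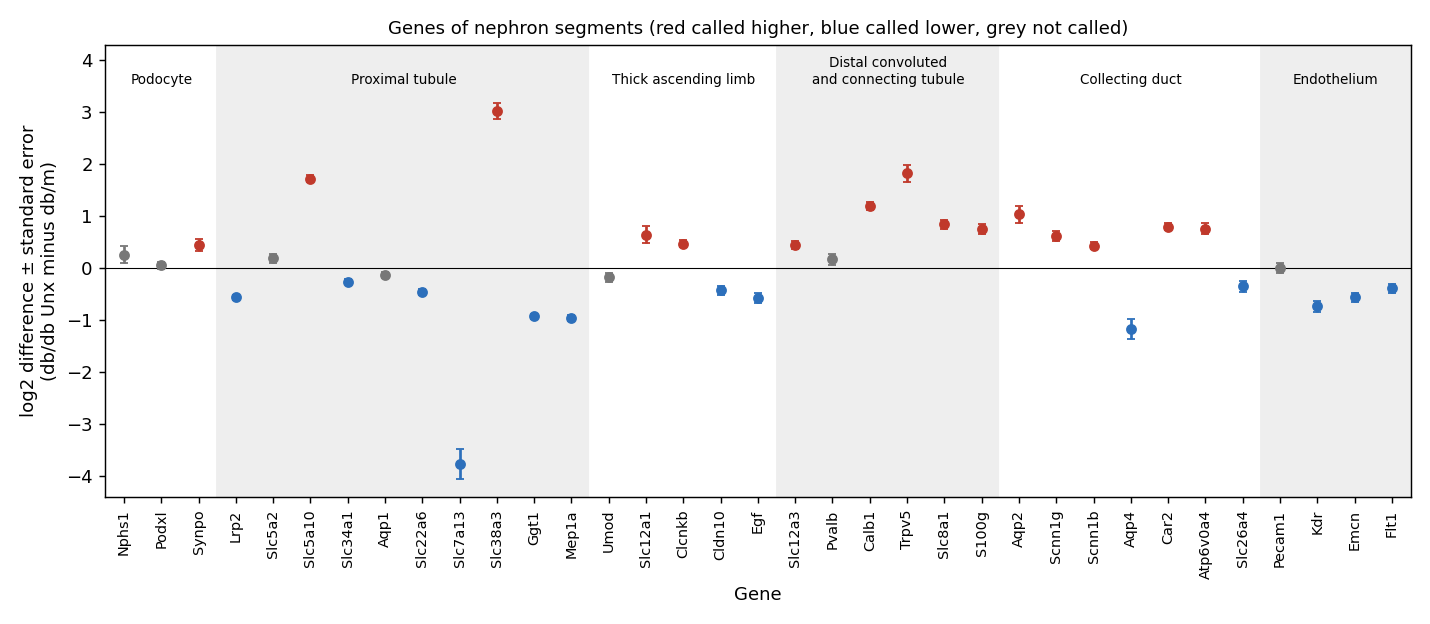
Log2 difference (db/db Unx minus db/m) with its standard error for genes of 6 compartments, from podocyte to collecting duct and endothelium. Points are genes, red called higher, blue called lower and grey not called. Proximal tubule genes spread from Slc7a13 at -3.77 to Slc38a3 at 3.02, and the distal convoluted and connecting tubule genes shown lie above 0.

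Mitochondrial and ribosomal genes depended on the scaling. None of the 13 mitochondrially encoded genes was called by limma, 0 and 1 were higher and lower at an unadjusted p below 0.05, and 5 were higher after quantile normalization. Of 36 complex I subunits 6 rose and 4 fell, which became 22 and 1 after quantile normalization, 16 and 2 with equal sums and 3 and 4 without db/m replicate 01. The largest change there was Ndufa4, from 851 ± 63.4 to 633 ± 22.7. Of 82 cytosolic ribosomal protein genes 5 rose and 9 fell, and 25 and 3 after quantile normalization, 32 and 2 with equal sums, 1 and 6 with the replicate block, 1 and 10 without db/m replicate 01 and 6 and 4 without 05. Mitochondrial ribosomal protein genes fell in 27 of 78 cases and rose in 5, with 19 and 5 after quantile normalization and 13 and 8 with equal sums, where the list median was -0.01 in place of -0.10. Mrpl50 and Mrpl44 were at -0.43 and -0.42. Of 30 citrate cycle and malate shuttle genes 5 rose and 8 fell, and 16 and 1 after quantile normalization, 14 and 3 with equal sums, 7 and 4 with the replicate block and 2 and 9 without db/m replicate 02.

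The mutated gene lies on chromosome 4, where db/db and db/m animals may differ in the DNA that was carried along with it, and its part in the results was not tested. Lepr (GRCm38, chromosome 4, 101717404 to 101815352) was at 0.247, 0.293, 0.52, 0.65 and 0.703 and 0.071 to 1.68 (median 0.704) and was not called (adjusted p = 0.493). The db change alters splicing, which a gene total does not show, so this level does not check the label. Within 10 Mb of Lepr 96 genes were tested, 14 higher and 24 lower, which is 39.6% called against 34.9% overall. Among the 5 called genes with the smallest adjusted p in that window were Cyp2j5, Cyp2j11, Rnf11 and Cyp2j13. Cyp2j5, a renal epoxygenase, went from 1472 ± 83.6 to 928 ± 65.9. The Cyp4a14 and Cyp4b1 genes lie further along the same chromosome, at chromosome 4, 115486200 to 115496142 and chromosome 4, 115624725 to 115647723.

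The same contrast at 35 weeks, with its own animals, gave 6.72 for Cyp4a14, -6.18 for Alox15 and -4.37 for Kap on the log2 scale. For proteasome subunits 22 were lower and 3 higher at that age, and for male-biased genes 22 and 1. The difference between the ages passed the test for 10 of the genes described (Aif1, C1qa, Ccl2, H2-T23, Il15, Il34, Irf7, Slc34a1, Slc7a8 and Tgfbi). Il34 was at -2.22 at 26 and -1.27 at 35 weeks, and C1qa at -0.46 and 0.96.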

How the data were processed

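Whole-kidney RNA was sequenced as bulk libraries (TRIzol and RNeasy extraction, Nextera XT libraries, per the labels' protocols). Reads were processed with DRAGEN against GRCm38 (mm10), per the submitters' processing notes. The sources used here do not give the DRAGEN version, the annotation or the scaling. Each cell of the deposited table is a signal value, which behaves as an estimated count times 1 factor per library: 88.7% to 91.8% of low values in the 26-week libraries lay within 0.1 of a whole multiple of a library-specific step. Because of the rest, no count model was run. The table has 0 value columns that belong to no sample. GENCODE M21 gave symbols and coordinates for 14834 of 14845 identifiers, and 11 had none.

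Values were used as log2(value + 1). A model with 1 mean for each of 4 groups over all 28 libraries was fitted in R 4.3.3 (limma 3.58.1, trended and robust moderation). The tests were two-sided, p-values were Benjamini-Hochberg adjusted over 13495 genes, and a gene was called below 0.05. All adjusted p-values in the text are from limma. Fold differences understate low genes because of the added 1. On data simulated for this comparison over 13495 genes the fit recovered 83.6% of genes changed 1.5-fold, 97% at 2-fold and 98.5% at 4-fold, with 16 false calls. The simulated counts were negative binomial with the same dispersion for every gene, and 67, 67 and 66 genes were changed. No simulated library stood apart from its group. In the real values spread differs between genes and far more genes differ, so these rates need not hold for them. That every library is a separate animal is assumed, as the labels do not say so; otherwise the p-values reflect spread that may be technical. The labels give no batch. Replicate numbers did not pair the groups.

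The genes and lists were chosen with earlier results of these data known, so no list is independent evidence of its direction. Named genes were Lepr, the 12 largest log2 differences per direction among separate, abundant genes, the 8 largest differences in level per direction, up to 6 called members of each list with the smallest adjusted p plus up to 2 of the rarer direction, all members of lists of at most 13, and 5 called genes near Lepr. Other genes named (for example Hspa5, Hsp90b1, Cd36, Nfe2l1, Havcr1, Slc5a2, Lpl, Umod and genes not called) were chosen after their values were seen. Some genes that meet these rules are not reported here. Families were taken by symbol pattern, with patterns corrected after seeing the members. Promoters came from RefSeq. The heat shock, sterol and ER stress element searches and the equal-sum scaling were added after seeing the data. Adipoq, Plin1, Lep, Cyp11a1 and Cyp11b1 were not analysed here.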

Additional observations from a re-analysis of the deposited data

Results flagged for a closer look

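In 24 of 323 genes named above, 1 of the 5 db/m libraries lay further from the others than Dixon's 95% limit allows, where chance gives about 1 in 20. The 12 db/db libraries were too many for this check. Values in brackets are that library's deposited value. Replicate 01 of db/m was highest for Cfb (582). For db/m replicate 01 low values stood out in Arg2 (2.33), Cp (21.2), Krt7 (72.6), Lcn2 (0.307) and Rsad2 (26.7). Replicate 02 of db/m was highest for Upk1b (0.26). Replicate 03 of db/m was highest for Bhmt (3.67) and Tgfb1 (7.28). For db/m replicate 03 low values stood out in Perp (73.3), Ren1 (37.7) and Rnf11 (232). Replicate 04 of db/m was highest for Acly (153), H2-T23 (108), Hsp90b1 (647), Pdia3 (720.4), Pigr (412), Psmb8 (52.9) and Sdf2l1 (44.1). For db/m replicate 04 low values stood out in Cubn (222), Jun (19), Trpm6 (2.6) and Ugt1a6a (9.07). Replicate 05 of db/m was highest for Ugt1a10 (8.02).

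The disease difference at 35 weeks minus that at 26 weeks passed the interaction test of the same fit for 10 genes named above. On the log2 scale this change was 1.58 for Aif1, 1.42 for C1qa, 1.5 for Ccl2, 1.36 for H2-T23, 0.814 for Il15, 0.949 for Il34, 1.76 for Irf7, -0.292 for Slc34a1, -0.76 for Slc7a8 and 1.17 for Tgfbi.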

How the results depend on the processing

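The scale and the added constant set some counts. With libraries scaled to equal sums, chosen after seeing the data, 3587 genes were higher in place of 2318. Genes changed at least 2-fold numbered 542, and 889 with 0.1 and 281 with 5 added before the log. Of these 268 were higher, and 520 with 0.1, 114 with 5 and 178 with a minimum value of 10. The 274 lower became 167 with 5 added. Leaving out 1 library at a time gave 4178 to 4758 called genes (lowest without db/m replicate 04), 2006 to 2341 higher, 2154 to 2417 lower, 518 to 591 at least 2-fold, 259 to 295 at least 2-fold higher, 257 to 296 at least 2-fold lower and 1752 to 2066 with no overlap. Depth limits genes of low value, whose fold differences the added constant understates.

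Of the 295 named genes called, 265 kept the call under all 27 alternatives run and 30 lost or reversed it under at least 1, and 13 not called gained one. Quantile normalization turned the sign of Cltrn (0.0786, not called) and Slc34a1 (0.201, called), for reasons not tested, and set Gpx3, which ranks first in every library, to 0. With the replicate number as a block 3919 genes were called, 1921 higher and 1998 lower. Of the 323 named genes 15 lost their call with this block and 1, Slc5a2, gained one. The 15 were C1qa, Cd14, Col1a1, Cxcl10, Gadd45g, Havcr1, Irf7, Krt10, Slc12a1, Slc1a5, Slc22a3, Slc26a4, Slc38a2, Slc7a5 and Upk1a. The replicate numbers share only a label. Deviations of same-numbered db/m and db/db libraries correlated at -0.0612 to 0.00599 and no library correlated best with its own number.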
